A study of Homo sapiens with 6 samples.

Results

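Integrins and laminins, the adhesion receptors of the cell surface and a family of basement membrane proteins that they bind, were followed in MDA-MB-231 cells with and without ArA. The genes were chosen by symbol, as those named as an integrin α subunit, an integrin β subunit or a laminin chain. They were chosen with earlier results of these data known, and some items are not reported here. The table held 63241 genes, of which 37 are described here, 18 integrin α genes, 8 integrin β genes and 11 laminin genes. Of these, 20 (14 integrin and 6 laminin genes) had a mean level of at least 1 TPM over the 6 libraries and were tested. TPM, the transcript abundance unit of the deposited table, divides reads by transcript length and gives each gene's share of a library, so levels of different genes can be set side by side.

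MDA-MB-231 is an established line of human breast cancer cells that lack hormone receptors and show mesenchymal features. The ArA group was 3 RNA-seq libraries of cells that received ArA at 40 µM and were cultured for 24 h. The control group was 3 libraries of cells that were not treated, and no vehicle is named for them. ArA is not spelled out for the samples; the title of the study names arachidonic acid, a polyunsaturated fatty acid of cell membranes. Both groups were grown in serum-containing medium and come from the same line. Nothing states that replicates were separate cultures, so a p-value here reflects how far these libraries lie apart, and that spread may be technical. In bulk RNA, fewer cells that express a gene and less of its RNA per cell cannot be told apart.

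An integrin is a dimer of 1 α and 1 β subunit that spans the membrane and ties the extracellular matrix to the actin skeleton. The α subunit largely sets the ligand: collagens, laminins, or proteins such as fibronectin and vitronectin that carry the tripeptide RGD. Most α subunits pair with β1, and a free subunit is kept back in the endoplasmic reticulum until it finds its partner. A laminin is a cross-shaped trimer of 1 α, 1 β and 1 γ chain that polymerises in basement membranes. Integrins α3β1, α6β1 and α6β4 are its main integrin receptors in epithelial cells, and changes in them accompany invasion in breast cancer.

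The 6 libraries differed in a way that their group labels do not explain. Among 3163 tested genes with transcripts under 42% GC, the median deviation from the gene's mean over the libraries was -0.29 on the log2 scale in ArA replicate 1 and -0.41 in control replicate 2, against 0.12 to 0.21 in the other 4 libraries. Mitochondrially encoded transcripts took 26.9 to 32.1% of TPM in ArA libraries and 31.6 to 32.9% in control libraries, and a smaller share for them raises all other genes. Over the 12999 tested genes the log2 fold change had a median of 0.06, and of 0.00 after scaling by median of ratios. Values without ArA replicate 1 and control replicate 2 are given where a result rests on them. Depth per library is unknown, because TPM keeps no read totals.

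The transcripts were led by the subunits of a laminin receptor and by 2 laminin β chains. LAMB2, the β2 chain of vascular and kidney basement membranes, had the highest level of the 37 genes, at 533, 472 and 432 TPM in ArA replicates 1, 2 and 3, against 419, 467 and 399 TPM in control replicates 1, 2 and 3. ITGA3, the α3 subunit of a laminin receptor, had 523, 424 and 397 TPM in ArA libraries, against 330, 404 and 312 TPM in control libraries. LAMB3, the β3 chain of epithelial basement membranes, had 442, 401 and 397 TPM in ArA libraries, against 343, 405 and 318 TPM in control libraries. In all 3 genes ArA replicate 1 was the highest library and control replicate 3 the lowest, and control replicate 2 lay among the ArA libraries, so the groups overlapped. ITGB1, the common β1 subunit, came next, and its highest library, at 355 TPM, lay above the lowest library of LAMB3, at 318 TPM. By GENCODE v29 on GRCh38, LAMB2 (ENSG00000172037) lies at chr3:49121114-49133118, ITGA3 (ENSG00000005884) at chr17:50055968-50090481, LAMB3 (ENSG00000196878) at chr1:209614870-209652466 and ITGB1 (ENSG00000150093) at chr10:32900319-33005792.

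**Figure D1:**
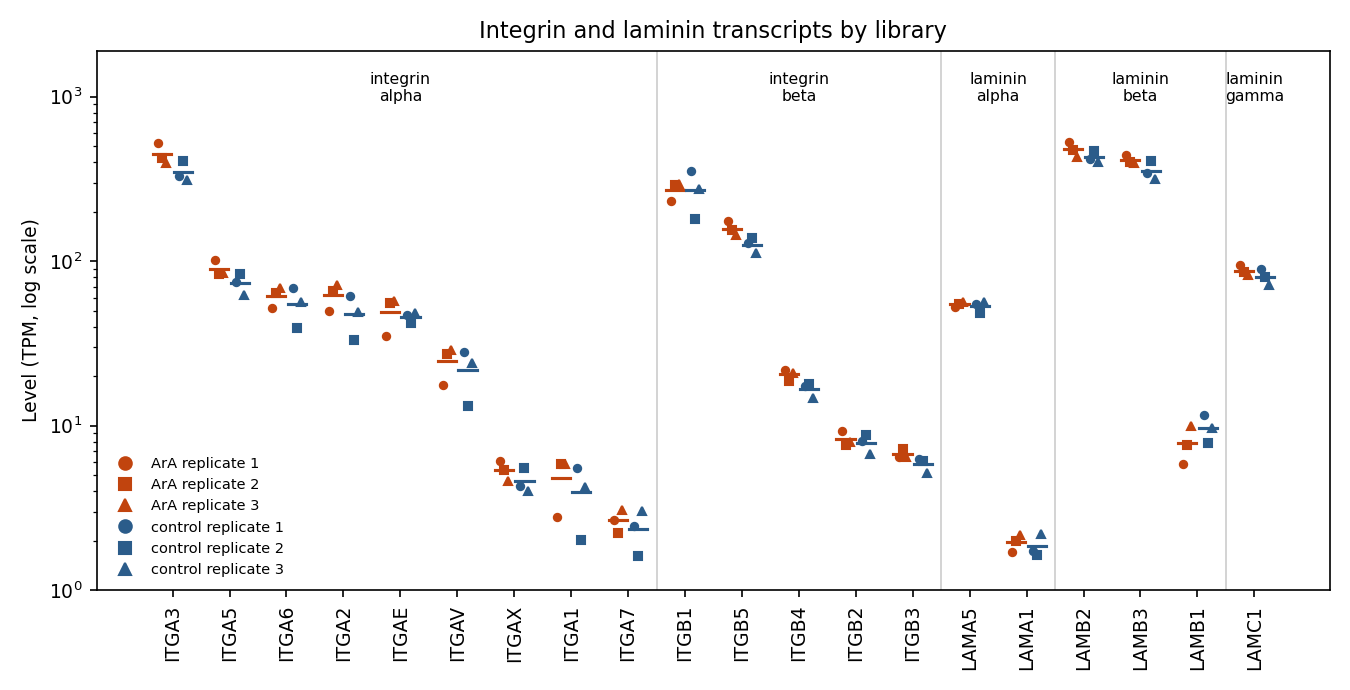
Level of each of the 20 tested genes (TPM, log scale) in ArA libraries (orange, left) and control libraries (blue, right). Points are libraries, with a marker for each replicate number, and bars are group means. ArA and control means lie close together for every gene, and control replicate 2 (blue square) is the lowest library for ITGB1, ITGA6, ITGA2, ITGAV, ITGA1, ITGA7, LAMA5 and LAMA1.

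None of the 20 integrin and laminin genes passed the test between ArA and control libraries. Each of the 20 had an adjusted p of 0.999 in limma, where 3 of all 12999 tested genes (0.0231%) passed an adjusted p of 0.05. Log2 fold changes ran from -0.29 for LAMB1 to 0.40 for ITGA2. They are on a log2(TPM + 1) scale, where differences of low genes come out too small. Values were positive for 19 of the 20 genes, where 8956 of all 12999 genes were positive, and the median was 0.18 over the 20 against 0.06 over all tested genes. After scaling by median of ratios 17 of the 20 were positive, with a median of 0.13, where 6624 of all 12999 genes were positive. After rescaling without mitochondrially encoded genes 17 were positive, with a median of 0.12, where 6402 of all 12984 genes were positive. Without control replicate 2 only 12 of the 20 were positive, and 6729 of all genes.

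ITGB5, ITGA3 and ITGB4 had an unadjusted p under 0.05, all 3 with higher values in ArA libraries, as did 2.28% of all tested genes. ITGA5, ITGB3, ITGB4 and ITGB5 had every ArA library above every control library, as did 6.84% of all tested genes. None of the 20 had every ArA library below every control library, against 1.21% of all genes. Both counts depended on the scaling. After median of ratios, or without mitochondrially encoded genes, 0 of the 20 had an unadjusted p under 0.05 in limma. Of all genes, 267 of 12999 and 276 of 12984 had one, in either direction. In both settings 0 of the 20 had groups that did not overlap. Every ArA library still lay above every control library for 2.93% and 3.36% of all genes. Without ArA replicate 1 and control replicate 2 the count of genes with every ArA library higher was 11 of 20, where 32.8% of all genes were so placed. It was 8 (16.8% of all genes) without control replicate 2 alone and 7 (21.3%) without ArA replicate 1 alone. The count at an unadjusted p under 0.05 was 5 without control replicate 2 (720 of all 12999 genes) and 1 without ArA replicate 1 (485 genes). It was 0 without control replicate 3 (229 genes) and 0 without ArA replicate 2 (228 genes).

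**Figure D2:**
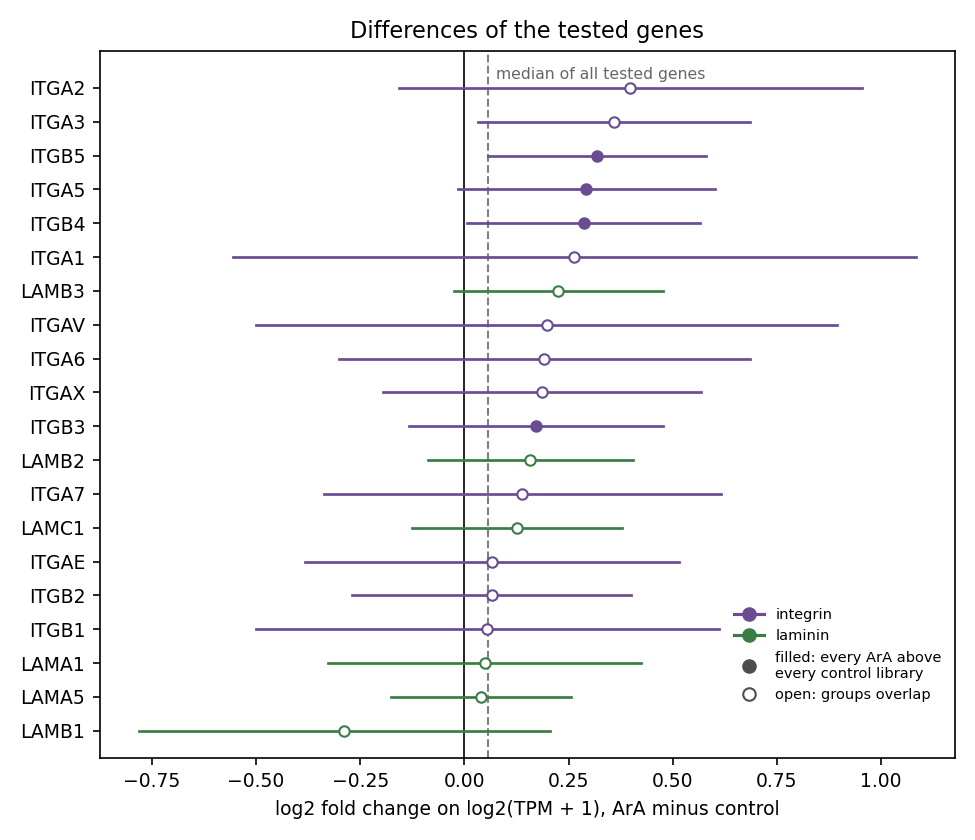
Log2 fold change (ArA minus control, on log2(TPM + 1)) of the 20 tested genes with limma's 95% interval. Filled points mark genes whose 3 ArA libraries all lie above the 3 control libraries, and the dashed line is the median of all tested genes at 0.06. Intervals of ITGA3, ITGB5 and ITGB4 lie just above 0, and those of the other genes include it.

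ITGB1 encodes the β subunit shared by receptors of collagen, laminin and fibronectin. It had 231, 291 and 294 TPM in ArA replicates 1, 2 and 3, against 355, 181 and 274 TPM in control replicates 1, 2 and 3. The highest and the lowest library were both controls, and the ArA libraries lay between them. Its log2 fold change was 0.06 with a 95% interval of -0.50 to 0.61, which bounds the fold between 0.707 and 1.53. The sign turned negative after median of ratios and without mitochondrially encoded genes. The log2 fold change was -0.20 without control replicate 2 and 0.28 without control replicate 1.

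Collagen is bound through ITGA2 and ITGA1, the α subunits of the β1 collagen receptors. ITGA2 had 49.9, 65.5 and 71.2 TPM in ArA libraries, against 61.8, 33.1 and 48.9 TPM in control libraries, with a log2 fold change of 0.40 (SE 0.24). This was the largest fold change of the 20 genes, with groups that overlapped. Its fold change was 0.16 without control replicate 2 and 0.60 without control replicate 1. After correction for GC content it was 0.37 (SE 0.10), with an unadjusted p of 0.00714 and an adjusted p of 0.9996 in limma. ITGA1 had 2.80, 5.86 and 5.87 TPM in ArA libraries, against 5.52, 2.02 and 4.25 TPM in control libraries. It had the widest interval of all 20, from -0.56 to 1.08, with ArA replicate 1 and control replicate 2 as its lowest libraries. ITGA1 and PELO share 475 exon bases on the same strand in GENCODE v29, so its level is uncertain. The other α subunits of collagen receptors were ITGA10, at most 0.82 TPM, and ITGA11, at most 0.01 TPM.

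Of the laminin-binding α subunits, ITGA3 exceeded the others in every library. Its mean was 448 ± 66.2 TPM in ArA libraries and 349 ± 49.0 TPM in control libraries (SD, n = 3 each), with a ratio of means of 1.28. ITGA3 had a log2 fold change of 0.36 (SE 0.14), and it was 0.30 after median of ratios and 0.35 without ArA replicate 1 and control replicate 2. With a single library left out it ran from 0.24 without ArA replicate 1 to 0.47 without control replicate 2. ITGA6, which joins either β1 or β4, had 52.0, 64.3 and 68.6 TPM in ArA libraries, against 69.1, 39.4 and 56.1 TPM in control libraries. Its groups overlapped, and the log2 fold change of 0.19 (SE 0.21) ran from -0.02 without control replicate 2 to 0.37 without control replicate 1. ITGA7, the α subunit typical of muscle fibres, had 2.66, 2.24 and 3.09 TPM in ArA libraries, against 2.45, 1.62 and 3.02 TPM in control libraries, at a low level in both.

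The DNA just upstream of the starts of ITGA2, ITGA6 and ITGB1 is shown because only the ratios of ITGA2 and of ITGA6 to ITGB1, given further on, had groups that did not overlap. In all 3 genes control replicate 2 was the lowest library and ArA replicate 1 the lowest ArA library, as they were in ITGAV, ITGA1, LAMA5 and LAMA1. The windows run from 250 to 31 bases before the gene's RefSeq start, from RefSeq on GRCh38.p14, and are printed 5′ to 3′ on the gene's strand, with the GC box GGGCGG (either strand), bound by SP1, in capitals. ITGA2 lies on the forward strand at chr5:52989102-52989321, ITGA6 on the forward strand at chr2:172427086-172427305 and ITGB1 on the reverse strand at chr10:32958261-32958480, inside the longer span that GENCODE v29 gives this gene.

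ITGA2: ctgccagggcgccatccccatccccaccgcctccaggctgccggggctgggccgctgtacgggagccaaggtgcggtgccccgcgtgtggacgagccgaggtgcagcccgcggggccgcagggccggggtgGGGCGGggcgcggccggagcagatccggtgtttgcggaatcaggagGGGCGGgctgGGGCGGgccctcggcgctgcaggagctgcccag

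ITGA6: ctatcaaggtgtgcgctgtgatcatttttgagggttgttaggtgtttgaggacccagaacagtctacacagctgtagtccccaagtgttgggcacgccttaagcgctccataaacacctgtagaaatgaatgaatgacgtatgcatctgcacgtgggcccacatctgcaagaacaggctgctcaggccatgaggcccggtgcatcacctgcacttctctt

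ITGB1: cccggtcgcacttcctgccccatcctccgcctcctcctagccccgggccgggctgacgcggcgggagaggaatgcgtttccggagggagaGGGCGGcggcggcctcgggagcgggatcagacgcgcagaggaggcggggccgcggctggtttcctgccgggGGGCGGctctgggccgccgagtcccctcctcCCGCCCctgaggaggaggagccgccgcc

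The ITGA2 window held 3 GC boxes at 78.2% GC and the ITGB1 window 3 at 77.3% GC, while the ITGA6 window held none at 51.4% GC. Of the other genes with that order of libraries, the windows of ITGAV and ITGA1 held 0 GC boxes and that of LAMA5 held 4. The RefSeq table had a window for 26 of the 37 genes and 13 of the 20 tested ones. The GC box was found in 9 of those 13, in 13 of the 26, and in 38.9% of all 35116 windows of the same length. The 35116 windows were not limited to tested genes. The AP-1 motif TGANTCA was in 0 of the 13, 1 of the 26 and 5.98% of all windows. The TATA motif TATAAA was in 0 of the 13, 0 of the 26 and 8.08% of all windows. These matches are letters in a window and do not show that a factor binds there.

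ITGB4, the β4 subunit of hemidesmosomes, has a long cytoplasmic tail that binds plectin. It had 21.7, 18.7 and 21.1 TPM in ArA libraries, against 17.4, 17.9 and 14.7 TPM in control libraries. The groups did not overlap, with 0.79 TPM between the lowest ArA and the highest control library. The log2 fold change of ITGB4 was 0.29 (SE 0.12), and it ran from 0.20 without control replicate 3 to 0.35 without ArA replicate 2.

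RGD-containing ligands are bound through ITGA5, the fibronectin receptor subunit, and ITGAV, which joins several β subunits to bind vitronectin and latent TGF-β. ITGA5 had 101, 84.0 and 84.8 TPM in ArA libraries, against 74.7, 83.2 and 62.6 TPM in control libraries. The groups did not overlap, but only 0.76 TPM lay between ArA replicate 2 and control replicate 2. ITGAV had 17.8, 27.2 and 28.7 TPM in ArA libraries, against 28.2, 13.3 and 24.1 TPM in control libraries. ArA replicate 1 and control replicate 2 were its lowest libraries, and its log2 fold change of 0.20 (SE 0.30) was -0.11 without control replicate 2 and 0.41 without ArA replicate 1.

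Among the β partners of ITGAV other than ITGB1, ITGB5 exceeded the others in every library. ITGB5, a vitronectin receptor subunit, had 174, 154 and 144 TPM in ArA libraries, against 129, 137 and 112 TPM in control libraries. Its groups did not overlap, with means of 158 ± 15.4 TPM in ArA and 126 ± 12.9 TPM in control libraries (SD, n = 3 each). ITGB5 had a log2 fold change of 0.32 (SE 0.11). With a single library left out that fold change ran from 0.24 without control replicate 3 to 0.38 without control replicate 2, with 0.24 without ArA replicate 1. Its unadjusted p of 0.0237 in limma was the smallest of the 20. After correction for GC content it was 0.0525 for ITGB5, and that of ITGA2 was the smallest. ITGB3, also a partner of the platelet subunit, had 6.46, 7.23 and 6.47 TPM in ArA libraries, against 6.30, 6.14 and 5.15 TPM in control libraries. ITGB3 libraries were separated by 0.16 TPM, a gap smaller than the SD of either group. ITGB3 shares 51.6% of its exon bases with the gene AC068234.1 on the same strand, which was listed at 0. ITGB8 and ITGB6, which activate latent TGF-β with ITGAV, had at most 0.30 and 0.17 TPM.

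Of the leukocyte integrin subunits, ITGAE, ITGB2 and ITGAX were above the threshold in these breast cancer cells. ITGAE, the α subunit that holds T cells to E-cadherin, had 35.0, 55.4 and 57.5 TPM in ArA libraries, against 47.2, 42.4 and 48.5 TPM in control libraries. Its partner ITGB7 had at most 0.10 TPM and its ligand gene CDH1 at most 0.17 TPM. Without strand, reads of ITGAE and of HASPIN, with which it shares 427 exon bases and which had 9.25 to 11.9 TPM, may not be told apart. ITGB2, the β2 subunit, had 9.31, 7.64 and 7.93 TPM in ArA libraries, against 8.13, 8.83 and 6.74 TPM in control libraries. ITGAX had 6.13, 5.36 and 4.64 TPM in ArA libraries, against 4.28, 5.54 and 4.03 TPM in control libraries. Groups overlapped in all 3 genes. The other β2 partners ITGAL, ITGAM and ITGAD had at most 0.22, 0.51 and 0.05 TPM. The leukocyte marker PTPRC had 0.04 to 0.08 TPM in ArA and 0.07 to 0.15 TPM in control libraries, and MS4A1 and SPI1 were listed at 0 in all 6. Of the 9 leukocyte markers 8 had a mean under 1 TPM. Among these CD8A had 0.78 to 1.01 TPM in ArA and 0.66 to 1.18 TPM in control libraries. The other marker, CD68, had 217 to 267 TPM in ArA and 185 to 221 TPM in control libraries.

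The α chains of laminin, which carry the integrin-binding domains, were far below LAMB2 and LAMB3. LAMA5, the α5 chain of most adult basement membranes, had 52.6, 55 and 56.3 TPM in ArA libraries, against 54.9, 48.6 and 56.2 TPM in control libraries. This was the narrowest interval among the 20 genes, a log2 fold change of 0.04 with a 95% interval of -0.18 to 0.26, or a fold between 0.885 and 1.19. The sign of LAMA5 was negative after median of ratios, without mitochondrially encoded genes and after correction for GC content, and without control replicate 2. LAMA5 and ADRM1 share 244 exon bases on opposite strands. LAMA1, the α1 chain of embryonic laminin, had 1.71, 1.98 and 2.17 TPM in ArA libraries, against 1.74, 1.64 and 2.20 TPM in control libraries, and was the tested gene nearest the threshold of 1 TPM. LAMA4, the α4 chain of vessel walls, lay just below it with a mean of 0.963 TPM, at 0.87, 0.98 and 1.97 TPM in ArA libraries, against 0.51, 0.52 and 0.93 TPM in control libraries. Only its ArA replicate 3 exceeded 1 TPM.

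Of the tested β chains LAMB2 and LAMB3 were the highest and LAMB1 the lowest. LAMB3 averaged 414 ± 25.0 TPM in ArA libraries and 355 ± 44.8 TPM in control libraries (SD, n = 3 each), with a log2 fold change of 0.22 (SE 0.11), and of 0.15 without control replicate 3. LAMB2 averaged 479 ± 51.3 TPM in ArA and 428 ± 34.9 TPM in control libraries, with a log2 fold change of 0.16 (SE 0.10), and of 0.08 without ArA replicate 1. LAMB1, the β1 chain, was the only tested gene with a negative log2 fold change, at 5.85, 7.67 and 9.98 TPM in ArA libraries, against 11.5, 7.88 and 9.66 TPM in control libraries. Its groups overlapped, and the fold change of -0.29 (SE 0.21) ran from -0.46 without ArA replicate 3 to -0.12 without ArA replicate 1, with -0.17 without control replicate 1. LAMC1, the γ1 chain shared by most laminins, had 94.3, 85.7 and 82.8 TPM in ArA libraries, against 89.4, 80.0 and 71.7 TPM in control libraries. Control replicate 3 was its lowest library, and only control replicate 1 reached into the ArA range.

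Levels of the chains were set against 13 trimers of human laminins, of which 4 had all 3 chains among the tested genes. For laminin-521, made of LAMA5, LAMB2 and LAMC1, the lowest chain was LAMA5 at a mean of 53.9 TPM over the 6 libraries. That was the highest lowest-chain level among the 13 trimers. Next came laminin-511, whose lowest chain was LAMB1 at 8.76 TPM. The lowest chain of both trimers with LAMA1 was LAMA1 at 1.91 TPM. These are transcript levels, and protein was not measured.

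LAMA3, an α chain of epithelial basement membranes, had 0.51, 0.36 and 0.67 TPM in ArA libraries, against 0.51, 0.68 and 0.48 TPM in control libraries, with overlapping groups. The remaining genes under 1 TPM were LAMA2, the muscle laminin chain, at most 0.91 TPM, LAMC3 at most 0.03 TPM, LAMB4 at most 0.08 TPM, ITGA2B of platelets at most 0.32 TPM, ITGA9 at most 0.03 TPM and ITGA8 at most 0.01 TPM. ITGA4, the α4 subunit that binds VCAM1 and fibronectin, was listed at 0 in all 6 libraries. A listed 0 may also stand for an estimate that failed. In all, 17 of the 37 genes lay under the threshold of 1 TPM and were not tested.

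Among ratios of partner subunits, those of ITGA2 and ITGA6 to ITGB1 were the only 2 whose groups did not overlap. ITGA2 over ITGB1 was 0.216, 0.226 and 0.242 in ArA replicates 1, 2 and 3, against 0.174, 0.183 and 0.179 in control replicates 1, 2 and 3. All 3 ArA ratios were above all 3 control ratios, although the levels of both genes overlapped between groups. The difference in log2 ratio was 0.35 (SD 0.08 in ArA and 0.03 in control libraries), and 0.35 after correction for GC content. ITGA6 over ITGB1 was 0.225, 0.221 and 0.233 in ArA libraries, against 0.195, 0.217 and 0.205 in control libraries, a log2 difference of 0.14. Its groups did not overlap either, with a gap of 0.00392 between ArA replicate 2 and control replicate 2. A ratio within a library does not depend on how the library is scaled.

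The question put to the pairs was whether ArA cells differ in the balance of subunits that must assemble together. Of 24 known integrin dimers, 11 had both subunits among the tested genes, and so had 8 of 22 laminin chain pairs, giving 19 ratios. Both ratios above reached an exact 2-sided permutation p of 0.1, the smallest that 3 against 3 libraries allow, and an adjusted p of 0.713 over the 19 exact tests. This exact test cannot reach 0.05 with 3 against 3 libraries, so its p does not show that the ratios were alike. Of 12797 tested genes above 0 in every library, 0.985% had a ratio to ITGB1 that was higher in all 3 ArA than in all 3 control libraries, and 1.70% of the 4705 with transcripts under 45% GC, as those of ITGA2, ITGA6 and ITGB1 are. Of 7 tested α partners of ITGB1, ITGA2 and ITGA6 were so placed.

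In the other 17 ratios the groups overlapped. ITGA3 over ITGB1 was 2.26, 1.46 and 1.35 in ArA libraries, against 0.930, 2.23 and 1.14 in control libraries. The 2 highest ratios were those of ArA replicate 1 and control replicate 2, 1 in each group, and they were 1.82 and 1.69 after correction for GC content. The same 2 libraries gave the lowest ratios of ITGAV over ITGB5, at 0.102, 0.177 and 0.199 in ArA libraries, against 0.218, 0.0965 and 0.215 in control libraries. ITGA6 over ITGB4 was 2.40, 3.44 and 3.26 in ArA libraries, against 3.98, 2.20 and 3.83 in control libraries, so ITGA6 exceeded ITGB4 in all 6. ITGAX over ITGB2 was 0.658, 0.702 and 0.585 in ArA libraries, against 0.526, 0.627 and 0.598 in control libraries, with overlapping groups. Among laminin chains, LAMA5 over LAMB1 was 8.99, 7.17 and 5.64 in ArA libraries, against 4.75, 6.16 and 5.82 in control libraries. After correction for GC content this ratio also reached the exact permutation p of 0.1.

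The α subunits that can join ITGB1 summed to 750, 674 and 660 TPM in ArA libraries, against 572, 578 and 512 TPM in control libraries. The sum was 1.25-fold higher in the mean of ArA libraries, with no overlap between groups and an exact 2-sided permutation p of 0.1. ITGA3 made up 99.3 TPM of the difference of 141 TPM between the means, and without ITGA3 the sum was 1.20-fold higher, with groups that overlapped (p = 0.2 in the same exact test). After median of ratios the groups of the whole sum overlapped too, at 1.21-fold, while without mitochondrially encoded genes they did not, at 1.20-fold. Summed levels overlapped between groups for the integrin β genes, the laminin α genes and the laminin β genes, with exact permutation p of 0.6, 0.6 and 0.2. Divided by ITGB1 the α sum was 3.24, 2.32 and 2.25 in ArA libraries, against 1.61, 3.19 and 1.87 in control libraries. Summed α transcripts exceeded those of ITGB1 in all 6 libraries, and the groups overlapped once ITGB1 was taken into account.

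**Figure D3:**
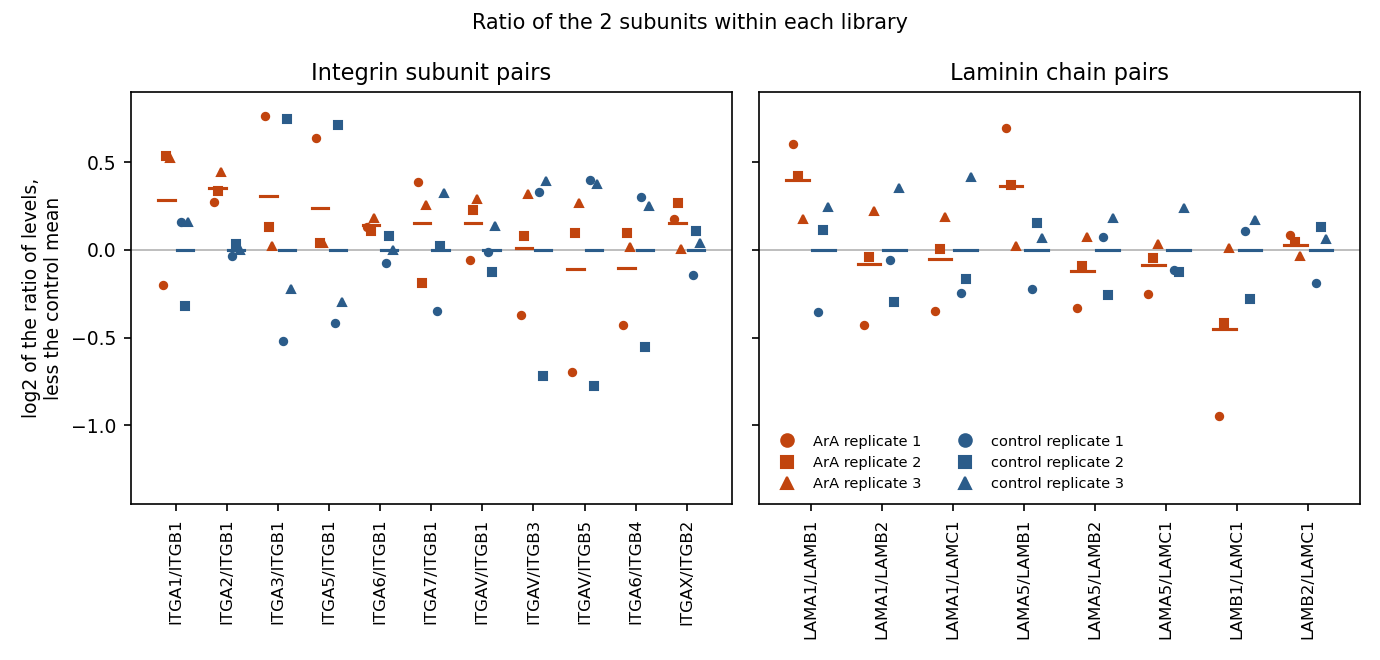
Log2 ratio of the levels of 2 subunits within each library, less the mean of the control libraries, for 11 integrin pairs (left) and 8 laminin chain pairs (right). Orange points on the left of each pair are ArA libraries, blue points on the right are control libraries, and bars are group means. ITGA2/ITGB1 and ITGA6/ITGB1 are the only pairs in which all ArA points lie above all control points, and in the other pairs the groups overlap.

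Transcript GC content went with the spread between libraries. The 5 tested genes with transcripts under 45% GC were ITGAV, ITGA1, ITGB1, ITGA2 and ITGA6, at 38.3 to 42.9%. Their level in ArA replicate 1 and control replicate 2 was 0.446 to 0.704 times that of the other 4 libraries, as a ratio of geometric means. The other 15 genes, at 48.7 to 66.4% GC, had ratios of 0.706 to 1.28. ArA replicate 1 and control replicate 2 were the 2 lowest libraries for 4 of the 5 genes and for 3 of the 15, and for 75.7% and 17.9% of all tested genes in the same GC ranges. Across the 20 genes, which share their libraries and are not independent, Pearson's r between GC content and the log2 ratio was 0.75 and Spearman's rho 0.70. ITGAE, ITGA7 and LAMB1 lay below the other genes of similar GC content. The part of GC content in each gene's values was not tested.

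**Figure D4:**
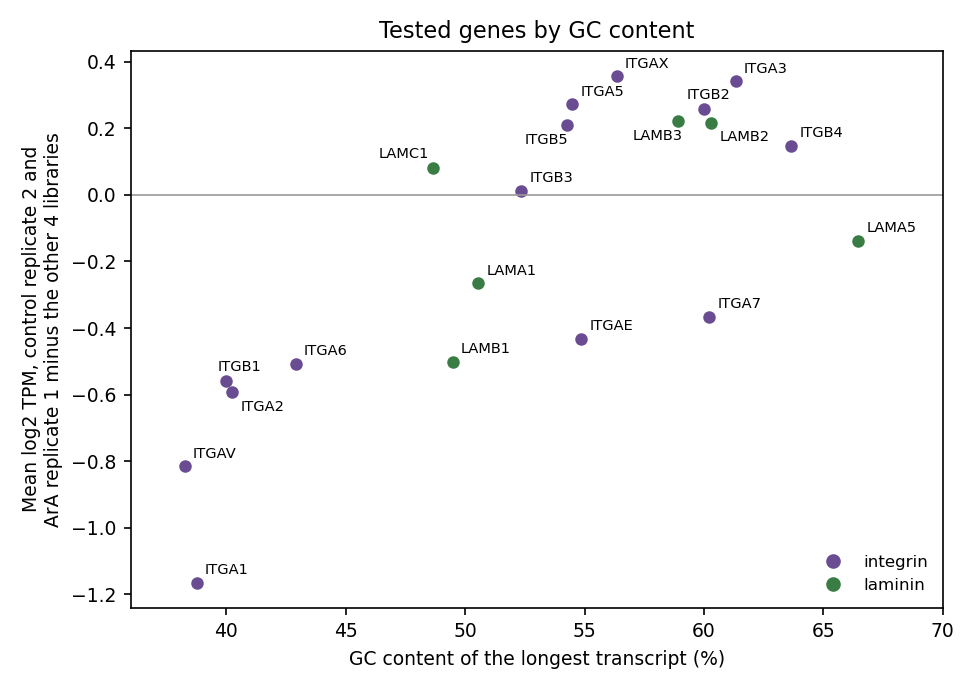
GC content of the longest transcript in GENCODE v29 (%) against the mean log2 TPM of ArA replicate 1 and control replicate 2 minus that of the other 4 libraries, for the 20 tested genes. Each point is a gene, purple for integrins and green for laminins. The 5 genes under 45% GC all lie below 0, and 10 of the other 15 lie above it.

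Genes that work with integrins and laminins gave no call over all genes in any list. Of 34 activators and adhesion adaptors, such as talin and the kindlins that switch integrins on, 30 were tested, 25 had positive log2 fold changes and the median was 0.06, equal to that of all genes to 2 decimals. Of all 12999 genes 8956 were positive. After median of ratios 15 of the 30 were positive, where 6624 of all 12999 genes were. FLNA, an actin crosslinker that binds β tails, had 578 ± 72.3 TPM in ArA and 550.3 ± 79.9 TPM in control libraries (SD, n = 3 each). ACTN4, an α-actinin, had 266 ± 27.3 TPM in ArA and 241 ± 8.12 TPM in control libraries. TNS4, a tensin of focal adhesions, had 4.92 ± 0.140 TPM in ArA and 3.97 ± 0.983 TPM in control libraries, and SHARPIN, an integrin inhibitor, had 25.4 ± 1.38 TPM in ArA and 26.5 ± 3.01 TPM in control libraries. In all 4 genes the groups overlapped. Of the 30 tested genes, 1 had every ArA library above every control library, against 6.84% of all tested genes. After median of ratios, or without mitochondrially encoded genes, 0 of the 30 were so placed, against 2.93% and 3.36% of all genes.

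Basement membrane partners and other laminin receptors were positive for 15 of 16 tested genes of 20, also after median of ratios, with a median of 0.13. Of all 12999 genes 8956 were positive, and 6624 after median of ratios. In 4 of the 16 every ArA library lay above every control library, against 6.84% of all tested genes, and in 0 after median of ratios, against 2.93%. Without mitochondrially encoded genes COL4A1 was the 1 gene so placed, against 3.36% of all genes. CD151, a tetraspanin that binds laminin-binding integrins, had 704 ± 68.2 TPM in ArA and 643 ± 63.0 TPM in control libraries (SD, n = 3 each). CD44, the hyaluronan receptor, had 352 ± 22.8 TPM in ArA and 330 ± 23.5 TPM in control libraries. COL4A1, a chain of collagen IV, had 15.6, 14.6 and 15.8 TPM in ArA libraries, against 13.2, 13.1 and 11.5 TPM in control libraries. Its groups did not overlap, also without mitochondrially encoded genes, but did after median of ratios. COL4A1 had a log2 fold change of 0.27 (SE 0.11) and did not pass limma's test, at an adjusted p of 0.999. BCAM, a receptor of LAMA5, had 18.3 ± 1.82 TPM in ArA and 19.0 ± 1.82 TPM in control libraries. NID1, nidogen, which links laminin to collagen IV, was listed at 0 in all 6 libraries.

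Integrin ligands other than laminins and collagens were positive for 16 of 17 tested genes of 28 (13 after median of ratios), with a median of 0.16. Positive values were found for 8956 of all 12999 genes (6624 after median of ratios). In 4 of the 17 every ArA library lay above every control library, against 6.84% of all tested genes, and in 3 after median of ratios, LTBP1 among them, against 2.93%. LTBP1, which holds latent TGF-β in the matrix where αV integrins act on it, had 55.6, 53.5 and 54.3 TPM in ArA libraries, against 45.5, 44.1 and 41.4 TPM in control libraries. These groups did not overlap, and the log2 fold change of LTBP1 was 0.31 (SE 0.08), which did not pass limma's test, at an adjusted p of 0.999. CCN1, a matricellular ligand of αV and α6 integrins, had 839 ± 32.1 TPM in ArA and 828 ± 79.8 TPM in control libraries (SD, n = 3 each). MFGE8, an RGD protein, had 284 ± 36.7 TPM in ArA and 278 ± 30.7 TPM in control libraries, and ICAM3, a ligand of β2 integrins, 8.74 ± 0.865 TPM in ArA and 9.41 ± 1.52 TPM in control libraries.

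Integrin trafficking genes were positive for 16 of 20 tested genes of 22 (12 after median of ratios), with a median of 0.10. None of the 20 had groups that did not overlap. Of all tested genes, 6.84% had every ArA library above every control library and 1.21% had every one below. Over all 12999 genes 8956 were positive (6624 after median of ratios). RAB11A, of recycling endosomes, had 226 ± 39.4 TPM in ArA and 204 ± 20.7 TPM in control libraries (SD, n = 3 each). RAB7A, of late endosomes, had 189 ± 15.3 TPM in ArA and 172 ± 7.57 TPM in control libraries. EPS8, an actin-capping protein, had 6.04 ± 1.38 TPM in ArA and 6.66 ± 2.11 TPM in control libraries.

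Most mesenchymal markers and the luminal keratins were high in both groups, and most of the other markers were low. All 9 mesenchymal markers were tested, led by LGALS1 and VIM, with summed levels of 6101 to 6500 TPM in ArA and 5535 to 6455 TPM in control libraries. ZEB1 was the lowest of the 9, at 2.73 to 5.45 TPM in ArA and 3.26 to 5.45 TPM in control libraries. S100A4 had 47.3 ± 4.36 TPM in ArA and 37.0 ± 2.97 TPM in control libraries (SD, n = 3 each). Its groups did not overlap, also without mitochondrially encoded genes, but did after median of ratios. CAV1 had 95.4 ± 6.24 TPM in ArA and 104 ± 20.9 TPM in control libraries. Of 11 luminal markers 8 were tested, with sums of 943 to 1074 TPM in ArA and 874 to 1074 TPM in control libraries. KRT8 led with 358 to 432 TPM in ArA and 343 to 439 TPM in control libraries. KRT18 had 285 to 311 TPM in ArA and 257 to 327 TPM in control libraries. KRT19 had 198 to 216 TPM in ArA and 175 to 207 TPM in control libraries. CLDN4 had 94.0 ± 9.27 TPM in ArA and 82.2 ± 6.27 TPM in control libraries. FOXA1 had 3.20 ± 0.290 TPM in ArA and 3.5 ± 0.274 TPM in control libraries. ESR1 had at most 0.03 TPM and PGR was listed at 0. Of 9 leukocyte markers only CD68, which other cells also express, was tested, and the list summed to 219 to 268 TPM in ArA and 186 to 222 TPM in control libraries. The 6 platelet markers summed to 0.13 to 0.41 TPM in ArA and 0.10 to 0.29 TPM in control libraries, with 5 at 0. The 10 fibroblast or muscle markers summed to 7.70 to 11.1 TPM in ArA and 7.03 to 8.49 TPM in control libraries, with PDGFRB and ACTA2 the only ones tested and MYOD1 and MYOG at 0. The part of any other cell type in these results was not tested.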

How the data were processed

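RNA was measured in 6 libraries, 3 ArA and 3 control, grouped and numbered by sample title. Per the labels' protocols, libraries came from 1 µg of total RNA with a TruSeq kit. The authors deposited TPM values, and the columns sum to nearly the same total. Per the submitters' processing notes, HISAT2, StringTie, RSEM and the build hg38 were used; roles, versions, annotation and strandedness were not given in the sources used here. Depth is unknown, so no counting interval is given.

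From the 63291 lines, 50 naming no gene were left out. The 12999 genes whose mean reached 1 TPM were fitted on log2(TPM + 1), pseudocount 1, with limma 3.58.1 in R 4.3.3 (eBayes with trend, group as the only term), 2-sided, with Benjamini-Hochberg adjustment over the 12999. The fit was tested on simulated data. Within-library ratios of subunits had exact 2-sided permutation tests (scipy 1.17.1). GC content (97.2% of tested genes), coordinates and exon overlaps came from GENCODE v29, matched by Ensembl identifier. The correction for GC content subtracts each library's spline trend (5 degrees of freedom).

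Dimers, trimers, lists and members were chosen with earlier results of these data known. Every one of the 37 genes is named, and some items are not reported here. Of each other list, the text names the 2 genes of highest mean level and the gene of smallest p in each direction. PTPRC, MS4A1, SPI1, CD8A, CDH1, ESR1, PGR, KRT19, ZEB1, NID1, MYOD1, MYOG and the genes sharing exons were named after their values were seen. Same-numbered libraries were not paired: correlations of their deviations were -0.16, -0.28 and 0.11.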

Additional observations from a re-analysis of the deposited data

How the results depend on the processing

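No member passed an adjusted p of 0.05 in limma in any of the 17 alternatives, which were other scalings, pseudocounts of 0.1 and 5, other filters, the replicate block, correction for GC content, eBayes without trend and libraries left out. At an unadjusted p under 0.05 there were 3 members with the settings of the report and 0 to 5 in the alternatives. Over all genes such counts were 362 with the settings of the report and 215 to 1255 in the alternatives. An adjusted p of 0.05 was passed by 3 of all genes, but by 0 with the replicate block, 5 after correction for GC content, 12 for control replicates 1 and 3 against ArA replicates 2 and 3, and 0 to 7 with a library left out. With 1 library of each group per replicate number, the replicate block cannot move a log2 fold change. The same holds for the other filters and eBayes without trend, so no sign could turn in these settings. The replicate block left 2 members at an unadjusted p under 0.05 in limma, where 232 of all genes had one. Every ArA library lay above every control library for 4 members (6.84% of all genes). With other scalings it was 0 after median of ratios (2.93%) and 0 without mitochondrially encoded genes (3.36%). With a library left out it was 4 to 8 members, where 9.44 to 21.3% of all genes were so placed. In the comparison of 4 libraries it was 11 members, against 32.8% of all genes. The median log2 fold change of members was positive throughout, at 0.18 with the settings of the report and 0.12 to 0.21 in the alternatives. It was 0.13 after median of ratios, 0.12 without mitochondrially encoded genes and 0.12 after GC correction with and without the replicate block. The sign was kept by 11 members in the 17 alternatives and by 11 of 19 ratios in the 8 run for ratios (GC correction, a library left out and the comparison of 4 libraries). It turned for LAMA5 (-0.019 after median of ratios, -0.021 after GC correction with and without the replicate block, and -0.025 without mitochondrially encoded genes), ITGB1 (-0.0039, and -0.0095 without mitochondrially encoded genes) and LAMA1 (-0.011 after GC correction with and without the block). In the comparison of 4 libraries it turned for ITGA7 (-0.033), ITGB1 (-0.092) and the ratios ITGAV/ITGB3 (-0.16) and LAMA1/LAMC1 (0.010). With a library left out, log2 fold changes ran from -0.024 to 0.37 for ITGA6, -0.030 to 0.28 for ITGA7, -0.054 to 0.55 for ITGA1, -0.024 to 0.080 for LAMA5, -0.032 to 0.14 for ITGB2, -0.11 to 0.41 for ITGAV, -0.059 to 0.29 for ITGAE, -0.0068 to 0.13 for LAMA1 and -0.20 to 0.28 for ITGB1. Log2 ratio differences ran from -0.024 to 0.32 for ITGA7/ITGB1, -0.35 to 0.21 for ITGAV/ITGB3, -0.50 to 0.18 for ITGAV/ITGB5, -0.38 to 0.055 for ITGA6/ITGB4, -0.23 to 0.094 for LAMA1/LAMB2, -0.17 to 0.15 for LAMA1/LAMC1, -0.15 to 0.033 for LAMA5/LAMC1 and -0.064 to 0.095 for LAMB2/LAMC1. Other scalings and the removal of ITGA3 were tried for the summed α partners of ITGB1 after seeing the data. The sum stayed higher, 1.20- to 1.21-fold when each was applied alone. Without ITGA3 it was 1.16-fold higher after median of ratios and 1.15-fold higher without mitochondrially encoded genes. Groups overlapped in both, with exact 2-sided permutation p of 0.2 and 0.4. Cause was not tested. TPM keeps no counts, so what depth limits is unknown.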
